A study of Mus musculus with 64 samples.

Results

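The wound bed of the mouse colon was compared with sham tissue 3 d after injury, in 11 of the 64 libraries of the series. All were from colon of C57BL/6 mice, an inbred laboratory strain. The 6 biopsy libraries were labelled as biopsy at 3 d and came from the wound bed left by a pinch biopsy, in which forceps take a small piece of mucosa. The 5 sham libraries were labelled as sham at 3 d and came from normal colon tissue after the procedure without biopsy. Both groups were chosen by their titles alone, and no measured value was used to choose them. The labels name no genotype, transgene or drug for these 11 libraries and give no age, batch or animal for a library. A p-value therefore reflects no more than how far libraries spread within their groups, and part of that may be technical. That spread was estimated over all 41 libraries of the time course and not over these 11 alone. An antibiotic treatment in the protocols concerns another cohort of the series, which was collected at 6 h and is not used here. The time course also holds biopsies and shams at 1 h (6 and 4), 6 h (5 and 5) and 6 d (5 and 5). These libraries serve to show where 3 d differs. They also enter the gene filter and the estimate of spread behind each 3 d SE and p-value. Per the labels' protocols, poly(A) RNA was sequenced, and the deposited value is FPKM, fragments scaled to transcript length and library depth, for each gene symbol.

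The colonic mucosa is a single layer of epithelium folded into crypts. Stem cells at the crypt base supply absorptive colonocytes, mucus-making goblet cells and hormone-making enteroendocrine cells. When a piece of mucosa is lost, epithelial cells at the margin flatten and spread over the gap as wound-associated epithelium, neutrophils and then monocytes enter the bed, and fibroblasts and new vessels build a provisional matrix. Smooth muscle of the muscularis mucosae lies just under the crypts. In bulk tissue, fewer cells of a type and less RNA per cell cannot be told apart.

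The 11 libraries held 414300.0 to 485000.0 FPKM in total and 11351 to 12575 genes at 1 FPKM or more. Read counts are not given, and relative depth, read from the smallest values, spanned 1.00 to 1.17. Epithelial markers chosen for the tissue check (Epcam, Cdh1, Vil1, Krt8 and Cdx2) summed to 3065 to 3864 FPKM in shams and 3524 to 4078 FPKM in biopsies. Sham 1 stood apart from the other shams, with a correlation of log2 values of 0.962 to 0.969 with them against 0.972 to 0.983 among them. It was low in stromal genes: its mean log2 level over the collagen chains was 2.39, where shams 2 to 5 had 3.52, 3.68, 3.48 and 3.76. Over the endothelial list it had 0.799, where the others had 1.72 to 1.94. Biopsy 5 was the lowest of the biopsies in both lists, at 3.47 and 1.67. Counts for the stromal lists are therefore also given without sham 1 or without both libraries.

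Differences between the groups were tested with limma on log2(FPKM + 1), in 1 fit of all 41 time course libraries. The test covered all 13285 genes that passed a filter of 1 FPKM in 4 of these libraries. Genes with a Benjamini-Hochberg adjusted p under 0.05 are called. The log2(FPKM + 1) scale understates changes of low genes. At 3 d, 5666 genes were called, of which 4269 (32.1% of the genes tested) were higher in the wound bed and 1397 (10.5%) were lower. A change of at least 1 on the log2 scale was reached by 336 of the higher and 80 of the lower genes. The groups did not overlap, in either direction, for 2677 genes (20.2%). The median change over all genes tested was 0.09. This split depends on scaling: median of ratios scaling gave 2617 higher with 2708 lower (median -0.01), and quantile normalization gave 2538 with 3282 (median -0.03). Small changes are therefore read against that median. A fit of only the 3 d libraries called 3503 genes higher and 1160 lower. Of the 253 named genes called at 3 d, 192 kept the call under each alternative processing tried, and none changed sign. Where a named gene lost its call, the number of alternatives in which it did so stands beside its p.

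**Figure D1:**
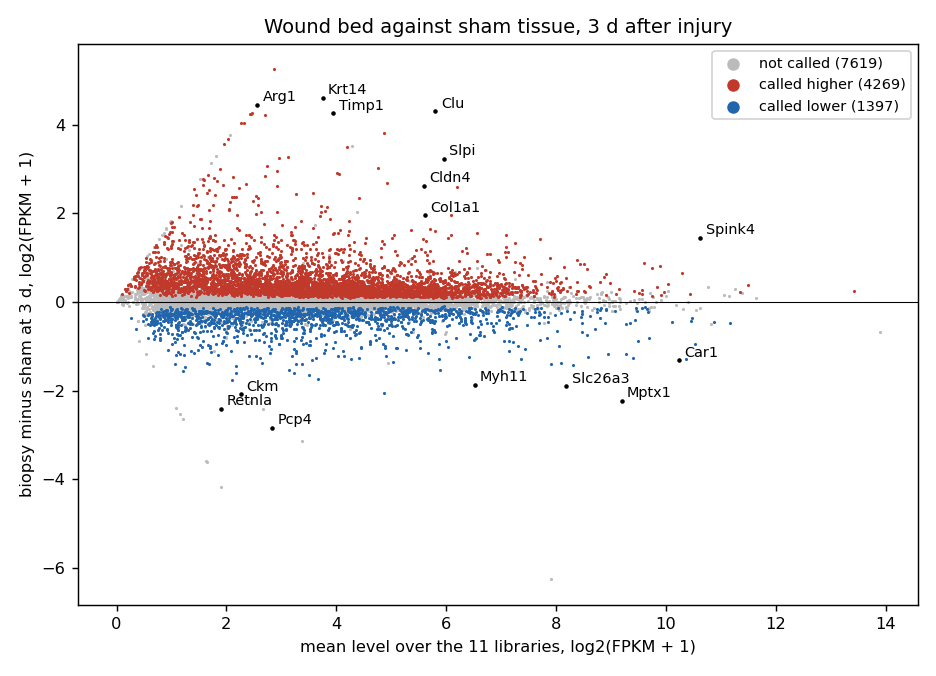
Each point is 1 of the genes tested; the horizontal axis is its mean level over the 11 libraries and the vertical axis its change in the wound bed at 3 d, both on the log2(FPKM + 1) scale. Red points (4269) were called higher and blue points (1397) lower, and the labelled genes are among those described in the text, from Krt14 at 4.61 to Pcp4 at -2.84.

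Genes of wound-associated and fetal-like epithelium rose together. All 14 members tested of 15 listed were called higher, with a median log2 change of 2.04 against 0.09 over all genes tested. The groups did not overlap for 13 of them, beside 20.2% of all genes tested. This list and those below were chosen with earlier results of these data known. Their counts are therefore descriptions and not independent support. Members near 0 in the 3 d shams could pass the filter only through other libraries, the biopsies among them. Examples are Msln in this list and Spp1, Cxcl3 and Arg1 in lists below. The counts of such lists were therefore partly set by the filter. The largest rise in the list was Clu, which encodes the secreted chaperone clusterin and marks revival-type cells of the injured intestinal epithelium (chr14:65968483-65981547, GRCm38). Clu was at 6.36, 23.9, 7.28, 8.7 and 9.84 FPKM in shams 1 to 5 and from 144 to 333 FPKM (median 203) in the 6 biopsies. Sham 2 was the highest sham, yet every biopsy lay above it, and the change was 4.30 ± 0.56 (SE, adjusted p = 1.63e-07). Cldn4, a claudin of tight junctions, was at 19.9, 19.5, 14.1, 15.2 and 16.5 FPKM in shams 1 to 5 and from 82.9 to 162 FPKM (median 103) in the 6 biopsies. The groups did not overlap, and the change was 2.62 ± 0.21 (SE, adjusted p = 3.52e-12). Msln, the surface glycoprotein mesothelin, was at 0 to 0.114 FPKM in shams and 2.49 to 13.4 FPKM (median 5.64) in biopsies, a change of 2.77 ± 0.22 (SE, adjusted p = 2.4e-12). Ly6d, a small surface protein of the Ly6 family, changed by 2.83 and Plaur, the urokinase receptor, by 2.43. Ly6a, known as Sca-1 and used as a marker of fetal-like epithelium, was already at 148 to 334 FPKM in shams and changed by 0.48 ± 0.16 (SE, adjusted p = 0.0184, call lost in 7 of 20), with overlap between the groups.

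Keratins, the intermediate filament proteins of epithelia, rose at 2 scales. Krt14, a keratin of basal cells in squamous epithelium (chr11:100203162-100207548, GRCm38), was at 1.71, 1.22, 1.27, 1.34 and 1.3 FPKM in shams 1 to 5 and from 29.98 to 98.3 FPKM (median 62.6) in the 6 biopsies. Shams lay close together and no biopsy came near them, for a change of 4.61 ± 0.21 (SE, adjusted p = 7.1e-19). Krt13, a keratin of squamous mucosa, was at 0.15, 0.245, 0.237, 0.0873 and 0.208 FPKM in shams 1 to 5 and from 4.01 to 14.1 FPKM (median 9.47) in the 6 biopsies. The groups did not overlap, and the change was 3.01 ± 0.21 (SE, adjusted p = 6.87e-14). Krt16, a stress keratin, changed by 1.25 and Sfn, the epithelial protein 14-3-3 sigma, by 1.08. In all, 6 of the 10 squamous genes tested of 21 listed were called higher and none lower, with a median of 0.66. The rest were not tested. Members near 0 in the 3 d shams, such as Krt13, could pass the filter only through other libraries, the biopsies among them. This tally was therefore partly set by the filter. The defining squamous genes were near 0: Krt5, the partner of Krt14 in basal cells, reached at most 0.211 FPKM in shams and 0.181 FPKM in biopsies, and Trp63, the basal cell transcription factor p63, at most 0.0112 and 0.0334 FPKM. Neither passed the filter. Among the simple keratins, 5 of 7 were called higher (2 after median of ratios scaling), led by Krt7 at 63.6 to 89.4 FPKM in shams and 177 to 269.9 FPKM (median 214) in biopsies, a change of 1.51 ± 0.11 (SE, adjusted p = 5.41e-13). Krt8, a main keratin of colonocytes, was at 0.17 ± 0.07 (SE, adjusted p = 0.0646) and overlapped.

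The proteins by which epithelial cells grip the basement membrane rose as a group. Of 16 laminin, integrin and related genes, 15 were called higher and none lower, with a median of 0.75, and 12 did not overlap between the groups. Laminin chains that migrating epithelium lays down were among those called higher. Lama3 was at 11.9, 7.54, 7.89, 13.1 and 8.12 FPKM in shams 1 to 5 and from 20.7 to 45.3 FPKM (median 27.8) in the 6 biopsies, a change of 1.51 ± 0.16 (SE, adjusted p = 2.15e-09). Lamb3 was at 67.8, 43.6, 48.8, 66.4 and 46.4 FPKM in shams 1 to 5 and from 103 to 142 FPKM (median 112) in the 6 biopsies, a change of 1.10 ± 0.11 (SE, adjusted p = 1.18e-09). Every biopsy exceeded every sham for both chains. Itga2, a collagen-binding integrin subunit, changed by 1.04 ± 0.15 (SE, adjusted p = 1.65e-06). Tight junction and desmosome genes were called about as often as genes in general: 5 of 15 were called higher and 1 lower, beside 32.1% and 10.5% of all genes tested. Median of ratios scaling left 2 higher and 2 lower. They had a median of 0.09 that became -0.03 after median of ratios scaling and -0.01 after quantile normalization. Cldn4 and Cldn23 (0.60) led the rises, Ocln (occludin) was the 1 called lower at -0.19 ± 0.06 (SE, adjusted p = 0.0057, call lost in 1 of 20), and Cldn2, the leaky claudin of crypts, was at 0.00 ± 0.13 (SE, adjusted p = 0.981).

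Epidermal growth factor receptors and their ligands, which drive epithelial spreading and division, rose in part. Of 10 genes tested of 11 listed, 5 were called higher, beside 32.1% of all genes tested, and none lower, with a median of 0.34. Median of ratios scaling left 4 called higher, with a median of 0.24, beside 2617 of all 13285 genes. Egfr itself was at 5.26 to 6.91 FPKM in shams and 8.67 to 14.9 FPKM (median 9.7) in biopsies, a change of 0.73 ± 0.11 (SE, adjusted p = 9.46e-07). The ligand Ereg (epiregulin) changed by 1.20 ± 0.23 (SE, adjusted p = 6.86e-05) and Hbegf by 0.82 ± 0.24 (SE, adjusted p = 0.00581), the second with overlap. The co-receptors Erbb2 (-0.04, adjusted p = 0.778) and Erbb3 (-0.13, adjusted p = 0.567) did not pass the test.

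**Figure D2:**
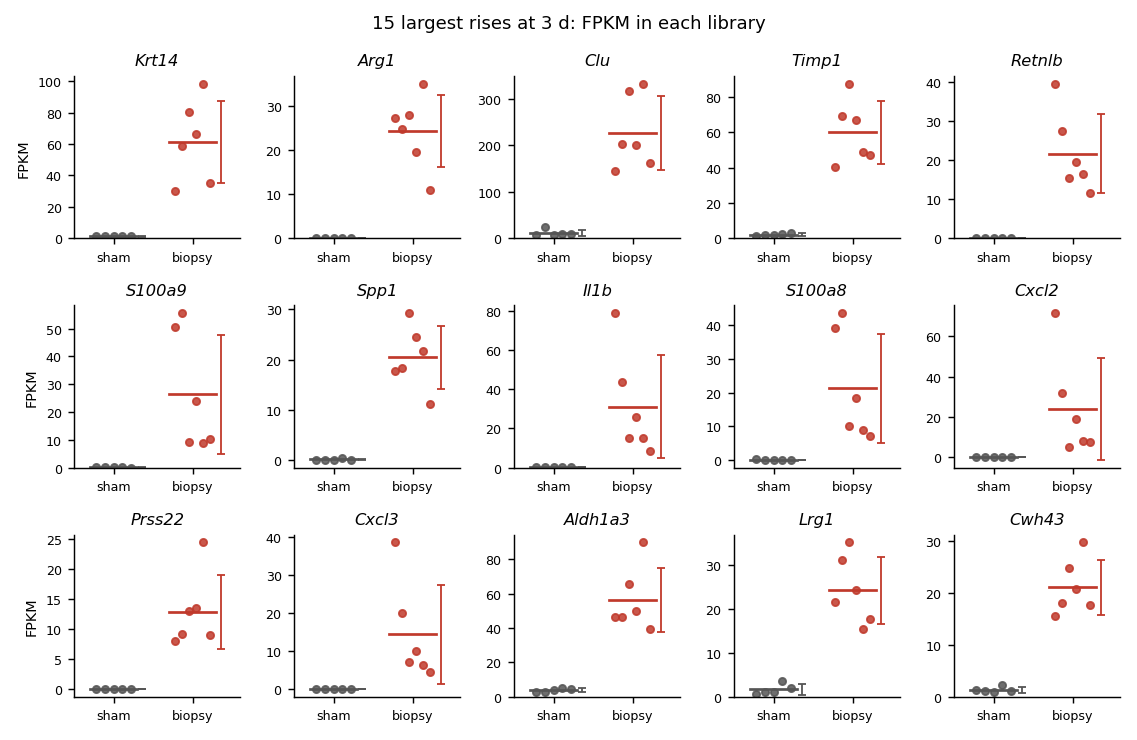
FPKM in each library for the 15 largest rises, with 5 shams in grey and 6 biopsies in red; the horizontal line is the group mean and the error bar the SD. Genes were drawn only where the groups did not overlap, and Cxcl2 spans 5.33 to 71.7 FPKM among the biopsies.

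Among the 15 largest rises, 3 genes belonged to no list. Prss22, a serine protease of the tryptase family, was at 0.0213, 0, 0, 0.0216 and 0 FPKM in shams 1 to 5 and from 8.03 to 24.5 FPKM (median 11.2) in the 6 biopsies. It was at or near 0 in every sham, and the change was 3.69 ± 0.15 (SE, adjusted p = 1.22e-19). Aldh1a3, an enzyme that makes retinoic acid, was at 3.07, 2.78, 4.2, 5.3 and 4.42 FPKM in shams 1 to 5 and from 39.5 to 89.97 FPKM (median 48.3) in the 6 biopsies. Its groups were far apart, with a change of 3.50 ± 0.20 (SE, adjusted p = 2.98e-16). Cwh43, a gene of lipid remodelling of membrane anchors, rose from 1.33 ± 0.517 FPKM (SD, n = 5) to 21.1 ± 5.36 FPKM (SD, n = 6), a change of 3.24.

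Genes of the mature surface colonocyte fell. Of 23 ion and water transport genes tested of 24 listed, 16 were called lower and 2 higher, with a median of -0.49, and 14 did not overlap between the groups. Slc26a3, the chloride-bicarbonate exchanger of the colon surface (chr12:31390871-31473917, GRCm38), was at 949.5, 543, 546, 498 and 539.9 FPKM in shams 1 to 5 and from 116 to 196 FPKM (median 164) in the 6 biopsies. Sham 1 was the highest, and all biopsies were below every sham. The change was -1.90 ± 0.16 (SE, adjusted p = 1.46e-11), and it was -1.74 (adjusted p = 8.51e-11) without sham 1. Aqp8, a water channel, was at 672, 418, 363, 285 and 382 FPKM in shams 1 to 5 and from 110.3 to 191 FPKM (median 154) in the 6 biopsies. Car1, a cytosolic carbonic anhydrase, was at 3652, 1791, 1797, 1143 and 2266 FPKM in shams 1 to 5 and from 585 to 1062 FPKM (median 781) in the 6 biopsies. Neither gene overlapped between the groups, with changes of -1.41 ± 0.18 (SE, adjusted p = 1.45e-07) and -1.32 ± 0.19 (SE, adjusted p = 1.18e-06). Car4, a membrane carbonic anhydrase, fell by 1.27 on the log2 scale, Trpm6, a magnesium channel, fell by 1.40 and Slc9a3, the sodium-proton exchanger NHE3, fell by 1.38. The 2 members that rose were Guca2b, the hormone uroguanylin, at 1.19 ± 0.12 (SE, adjusted p = 3.51e-10), and Aqp4, a water channel of the basolateral membrane, at 1.20 ± 0.25 (SE, adjusted p = 0.000182). For both, every biopsy lay above every sham. General epithelial genes were called about as often as genes in general, with 4 of 15 higher and 2 lower, beside 32.1% and 10.5% of all genes tested. Scaling by median of ratios left none called higher and 3 lower, and the median of 0.11 became 0.00. The 2 that fell were transcription factors of differentiated epithelium, Hnf4g (-0.58 ± 0.14 SE, adjusted p = 0.000707) and Klf4 (-0.48 ± 0.09 SE, adjusted p = 4.79e-05), while Cdh1, E-cadherin, was at 0.26 ± 0.06 (SE, adjusted p = 0.000419, call lost in 1 of 20).

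**Figure D3:**
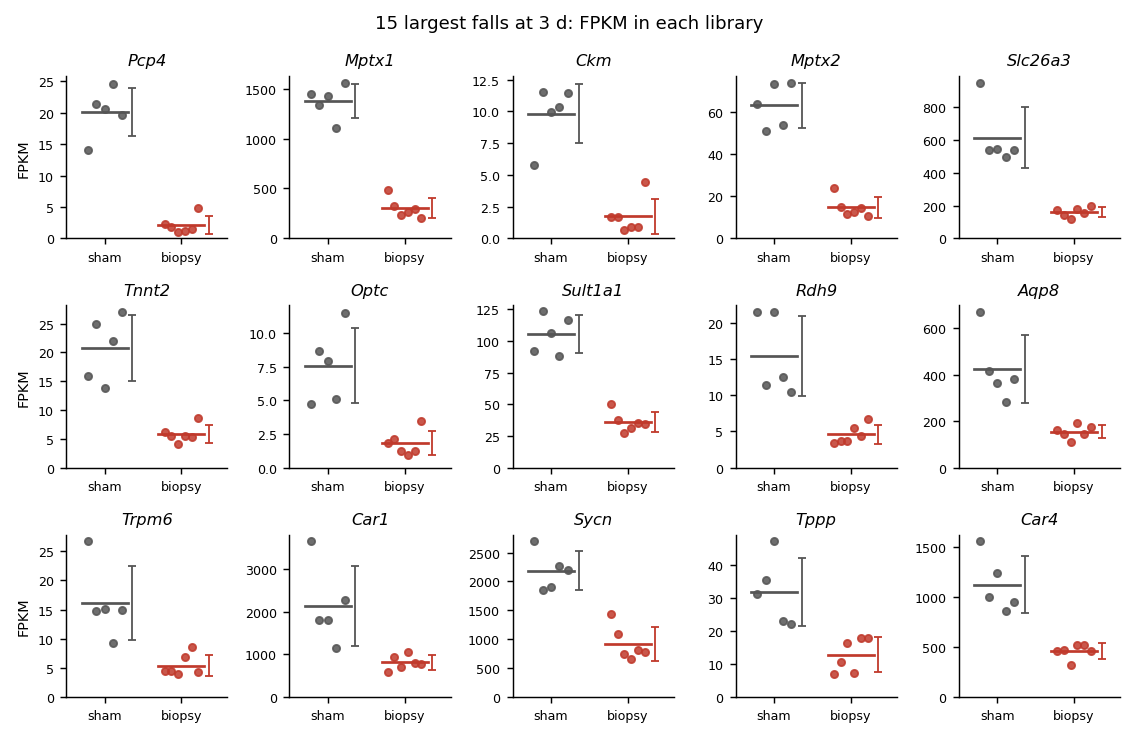
FPKM in each library for the 15 largest falls, with 5 shams in grey and 6 biopsies in red; the horizontal line is the group mean and the error bar the SD. Genes were drawn only where the groups did not overlap, and biopsy 6, the last red point, is the highest biopsy for Pcp4, Ckm and Optc.

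Metabolic genes of the surface fell in part. Of 18 xenobiotic and alcohol metabolism genes tested, 11 were called lower and 2 higher, with a median of -0.50. Sult1a1, which sulfates phenols, was at 92.2, 123, 106, 88.1 and 116 FPKM in shams 1 to 5 and from 27.1 to 50.5 FPKM (median 34.5) in the 6 biopsies. The groups were apart, and the change was -1.54 ± 0.14 (SE, adjusted p = 3.94e-11). Aldh1a1, which like Aldh1a3 makes retinoic acid, moved the other way from it, from 27.2 ± 5.11 FPKM (SD, n = 5) to 11 ± 1.69 FPKM (SD, n = 6), a change of -1.22 ± 0.12 (SE, adjusted p = 9.04e-10). Selenbp1, which oxidizes methanethiol, changed by -1.23 ± 0.16 (SE, adjusted p = 1.74e-07), although its reads may be shared with the near-identical Selenbp2. The 2 that rose were Gsta4 (0.51), which clears lipid aldehydes, and the exporter Abcg2 (0.34), whose call was lost after median of ratios scaling. Of 20 genes that oxidize fatty acids or make ketones, 7 were called lower and none higher, with a median of -0.12. Median of ratios scaling and quantile normalization each gave 13 lower, with medians of -0.24 and -0.23. Pck1, the gluconeogenic enzyme, was at -1.09 ± 0.27 (SE, adjusted p = 0.00156) and the coactivator Ppargc1a at -0.71 ± 0.18 (SE, adjusted p = 0.00219). Outside the lists, Mptx1, a mucosal pentraxin, was at 1445, 1338, 1423, 1105 and 1558 FPKM in shams 1 to 5 and from 205 to 488 FPKM (median 278) in the 6 biopsies, a change of -2.24 ± 0.18 (SE, adjusted p = 4.46e-12). Its near-identical neighbour Mptx2 changed by -2.06, and the 2 cannot be read as independent. Sycn, syncollin, a protein of secretory granules, fell by 1.30, Rdh9, a retinol dehydrogenase, fell by 1.53 and Tppp, a tubulin polymerization protein, fell by 1.29. The last 3 also did not overlap between the groups.

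Goblet cell genes were called about as often as genes in general. Of 16 tested, 6 were called higher and 2 lower, beside 32.1% and 10.5% of all genes tested, with a median of 0.22. Retnlb, which encodes the goblet cell protein RELMβ, was at 0.0467, 0.186, 0.0949, 0.192 and 0 FPKM in shams 1 to 5 and from 11.7 to 39.5 FPKM (median 18) in the 6 biopsies. It was at or below 0.192 FPKM in each sham and the change was 4.25 ± 0.23 (SE, adjusted p = 6.87e-17). Spink4, a small protease inhibitor of goblet cells, was at 933, 888, 1054, 847 and 867 FPKM in shams 1 to 5 and from 2099 to 2927 FPKM (median 2554) in the 6 biopsies, a change of 1.45 ± 0.14 (SE, adjusted p = 1.28e-10). Muc2, the gel-forming mucin of the colon, rose from 381 ± 52.2 FPKM (SD, n = 5) to 592 ± 65.3 FPKM (SD, n = 6), a change of 0.64 ± 0.11 (SE, adjusted p = 9.99e-06), and Spdef, the goblet cell transcription factor, changed by 0.59 ± 0.10 (SE, adjusted p = 1.05e-05). None of these 4 overlapped between the groups. The 2 called lower were Klk1, a kallikrein (-0.82 ± 0.15 SE, adjusted p = 2.57e-05), and Zg16, a mucus lectin (-0.48 ± 0.18 SE, adjusted p = 0.0341, call lost in 10 of 20). Clca3, the goblet cell gene now named Clca1, was at -0.01 ± 0.23 (SE, adjusted p = 0.978). Among enteroendocrine genes, 4 of 13 were called higher, close to the share of all genes, and none lower. Quantile normalization gave 3 higher and 2 lower, as did leaving out sham 1. Cck, cholecystokinin, rose from 0.142 to 0.287 FPKM in shams to 1.59 to 2.51 FPKM (median 2.16) in biopsies, a change of 1.38 ± 0.12 (SE, adjusted p = 4.66e-11). Pyy, peptide YY, changed by 0.60 ± 0.10 (SE, adjusted p = 5.3e-06) and Gcg, proglucagon, by 0.57 ± 0.12 (SE, adjusted p = 0.000214, call lost in 1 of 20), while the granule protein Chga was at 0.02 ± 0.11 (SE, adjusted p = 0.904). Of 5 tuft cell genes tested of 10 listed, 1 was called higher, Dclk1 (0.38 ± 0.13 SE, adjusted p = 0.0204, call lost in 5 of 19), and the median of 0.10 became -0.01 after quantile normalization.

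Crypt genes as a list were called about as often as genes in general. Of 14 crypt and Wnt target genes tested, 5 were called higher and 1 lower, beside 32.1% and 10.5% of all genes tested, with a median of 0.21. Quantile normalization gave 5 higher and 4 lower. Without sham 1 the counts were 5 and 3, and the median was 0.02. Lgr5, the stem cell receptor for R-spondins, was at 0.509, 1.46, 1.36, 1.91 and 2.95 FPKM in shams 1 to 5 and from 2.13 to 3.05 FPKM (median 2.48) in the 6 biopsies. Sham 1 was far below the rest and sham 5 lay within the range of the biopsies. The change was 0.49 ± 0.15 (SE, adjusted p = 0.00825, call lost in 4 of 19) with all libraries and 0.31 (adjusted p = 0.0717) without sham 1. Smoc2, a matrix protein of stem cells, changed by 0.93 ± 0.19 (SE, adjusted p = 0.000143) and by 0.63 (adjusted p = 0.000526) without sham 1. Cd44, a hyaluronan receptor, changed by 1.34 ± 0.16 (SE, adjusted p = 4.24e-08) with no overlap. Tnfrsf19, the receptor Troy, was the 1 called lower, at -0.50 ± 0.12 (SE, adjusted p = 0.00118). Axin2 (0.05 ± 0.16 SE, adjusted p = 0.828), which reads Wnt signalling directly, and the stem cell factor Ascl2 (0.21, adjusted p = 0.425) did not pass the test.

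Genes of DNA replication rose in the wound bed, and the calls for mitosis genes were less stable. Of 15 S phase genes, 13 were called higher, and of 15 mitosis genes 9 were, beside 32.1% of all genes tested. Each list had a median of 0.50. None of either list was called lower. Without sham 1, 9 and 5 were called higher, beside 3366 of all 13278 genes tested. Without both sham 1 and biopsy 5, 10 and 3 were, beside 3535 of 13270. That last count for mitosis is no larger a share than that of all genes. Rrm2, a subunit of ribonucleotide reductase, was at 2.02, 5.24, 4.6, 3.9 and 6.01 FPKM in shams 1 to 5 and from 7.24 to 14.7 FPKM (median 10.5) in the 6 biopsies, a change of 1.15 ± 0.19 (SE, adjusted p = 1.04e-05). Birc5, survivin, changed by 0.68 ± 0.15 (SE, adjusted p = 0.000321), and Cdk1 by 0.60 ± 0.14 (SE, adjusted p = 0.000776). Mki67, the common marker of cycling cells, was at -0.02 ± 0.14 (SE, adjusted p = 0.935) and overlapped.

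Epithelial defence genes rose. Of 16 tested of 17 listed, 12 were called higher and 2 lower, with a median of 1.07, and 11 did not overlap. Slpi, an inhibitor of neutrophil elastase, was at 25.3, 8.64, 30.5, 28.1 and 7.7 FPKM in shams 1 to 5 and from 139.8 to 245 FPKM (median 154) in the 6 biopsies. Shams 2 and 5 were below the other shams, and all were far below the biopsies, for a change of 3.23 ± 0.31 (SE, adjusted p = 3.51e-10). Lrg1, a leucine-rich glycoprotein of the acute phase, was at 0.644, 1.15, 1.08, 3.61 and 1.97 FPKM in shams 1 to 5 and from 15.5 to 35.2 FPKM (median 22.9) in the 6 biopsies, a change of 3.27 ± 0.24 (SE, adjusted p = 2.55e-13). Saa3, a serum amyloid A made locally, was at 1.5, 1.09, 1.88, 1.48 and 0.467 FPKM in shams 1 to 5 and from 6.89 to 33.7 FPKM (median 15.4) in the 6 biopsies, a change of 2.83 ± 0.31 (SE, adjusted p = 3.84e-09). Lcn2, lipocalin 2, which binds bacterial siderophores, changed by 1.21 ± 0.25 (SE, adjusted p = 0.000155), and Nos2, inducible nitric oxide synthase, by 0.93 ± 0.25 (SE, adjusted p = 0.00326). Pigr, the receptor that carries IgA across the epithelium, was called lower, from 784 ± 90.1 FPKM (SD, n = 5) to 568 ± 83.5 FPKM (SD, n = 6), a change of -0.47 ± 0.12 (SE, adjusted p = 0.00239, call lost in 1 of 20). The other member called lower was Saa1 (-0.43 ± 0.17 SE, adjusted p = 0.0372, call lost in 12 of 20), but Saa1 and Saa2 are near-identical and the split of reads between them is uncertain.

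Smooth muscle genes fell as a whole. All 12 members tested of 13 listed were called lower, with a median of -1.13, and in none of them were the groups fully apart. Myh11, the smooth muscle myosin heavy chain, was at 77, 255, 204, 189 and 287 FPKM in shams 1 to 5 and from 32.6 to 109 FPKM (median 44.3) in the 6 biopsies. Sham 1 was the lowest sham and lay below biopsy 6, the highest biopsy. The change was -1.88 ± 0.39 (SE, adjusted p = 0.000212), and without sham 1 it was -2.19 (adjusted p = 4.35e-05). Actg2, enteric actin, was at 359, 736, 556, 365 and 856 FPKM in shams 1 to 5 and from 136 to 393 FPKM (median 174) in the 6 biopsies, a change of -1.43 ± 0.38 (SE, adjusted p = 0.00242). Des, the muscle filament desmin, changed by -1.0 ± 0.35 (SE, adjusted p = 0.0211, call lost in 2 of 20) and Synm, synemin, by -1.74 ± 0.37 (SE, adjusted p = 0.000293). Without sham 1 all 12 were still called lower, with a median of -1.36. At 1 h the median of the list was 0.08 with none called, and at 6 h it was -0.21 with 3 called lower. At 6 d it was -0.81 with 7 called lower. The cause of the fall was not tested. Genes outside the list fell too. Pcp4, a calmodulin-binding peptide, was at 14.2, 21.4, 20.6, 24.6 and 19.7 FPKM in shams 1 to 5 and from 1.02 to 4.82 FPKM (median 1.65) in the 6 biopsies, a change of -2.84 ± 0.42 (SE, adjusted p = 1.43e-06). Ckm, muscle creatine kinase, was at 5.8, 11.6, 9.98, 10.3 and 11.5 FPKM in shams 1 to 5 and from 0.686 to 4.46 FPKM (median 1.3) in the 6 biopsies, a change of -2.08 ± 0.38 (SE, adjusted p = 3.6e-05). Tnnt2, a troponin, changed by -1.66 ± 0.35 (SE, adjusted p = 0.000258), and Optc, the matrix proteoglycan opticin, by -1.60 ± 0.33 (SE, adjusted p = 0.0002). Biopsy 6, whose mean level over the smooth muscle list (6.4) lay among those of the shams (5.9 to 7.35), also had the highest Pcp4 and Ckm of the biopsies. Of 13 enteric neuron and glia genes, 2 were called higher, a smaller share than the 32.1% of all genes tested, and none lower. The median of 0.27 became -0.01 without sham 1. The 2 were Ret, a growth factor receptor of enteric neurons (1.28 ± 0.17 SE, adjusted p = 1.39e-07), and Tubb3, neuronal tubulin (0.85 ± 0.29 SE, adjusted p = 0.0176, call lost in 4 of 20).

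Matrix genes rose. Of 17 collagen chains, 15 were called higher and none lower, with a median of 1.06, although only 4 did not overlap between the groups. Col1a1, a chain of type I collagen, was at 10.3, 24.7, 31.3, 21 and 32.5 FPKM in shams 1 to 5 and from 44.4 to 165 FPKM (median 100.1) in the 6 biopsies. Sham 1 was the lowest library and biopsy 5 the lowest biopsy. The change was 1.96 ± 0.24 (SE, adjusted p = 6.65e-08), and it was 1.89 (adjusted p = 1.02e-08) without these 2 libraries. Col18a1, which yields endostatin, changed by 1.94 ± 0.20 (SE, adjusted p = 2.01e-09), and Col5a2, a fibril-regulating collagen, by 1.54 ± 0.20 (SE, adjusted p = 1.28e-07). Without sham 1, 13 chains were called higher with a median of 0.70. Without both libraries 16 were, with a median of 0.95. A fit of only the 3 d libraries called 10 of them higher. Enzymes that process collagen rose with it, 13 of 16 called higher and 1 lower, and 11 and 1 without sham 1. Lox, which crosslinks collagen and elastin, was at 0.531, 0.654, 0.78, 0.83 and 1.22 FPKM in shams 1 to 5 and from 4.69 to 16 FPKM (median 7.52) in the 6 biopsies. No biopsy overlapped the shams, and the change was 2.37 ± 0.17 (SE, adjusted p = 2.47e-13). The 1 called lower was Leprel1, a prolyl hydroxylase now named P3h2 (-0.40 ± 0.12 SE, adjusted p = 0.0079, call lost in 1 of 19).

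Matricellular proteins, which signal from the matrix rather than hold it up, were called higher in 15 of 19 cases and lower in none, with a median of 0.82. Without sham 1 the count was 12 and the median 0.71. Spp1, osteopontin, was at 0.0393, 0.0194, 0.0197, 0.364 and 0.038 FPKM in shams 1 to 5 and from 11.1 to 29.3 FPKM in the 6 biopsies. It was near 0 in the shams, and the change was 4.24 ± 0.22 (SE, adjusted p = 2.34e-17). Thbs1, thrombospondin 1, was at 3.55, 5.23, 5.58, 5.46 and 7.58 FPKM in shams 1 to 5 and from 17.3 to 39.9 FPKM (median 30.1) in the 6 biopsies, a change of 2.14 ± 0.24 (SE, adjusted p = 8.89e-09). Tnc, tenascin C, changed by 1.62 ± 0.28 (SE, adjusted p = 1.44e-05) with sham 5 overlapping the biopsies, and Postn, periostin, was at 0.12 ± 0.17 (SE, adjusted p = 0.605). Genes of fibroblast activation were called higher in 11 of 15 cases and lower in 1, and in 10 and 1 without sham 1. Cthrc1, a secreted protein of repair fibroblasts, was at 0.124, 0.147, 0.149, 0.151 and 0.143 FPKM in shams 1 to 5 and from 1.74 to 12.3 FPKM (median 3.82) in the 6 biopsies, a change of 2.18 ± 0.22 (SE, adjusted p = 6.57e-10). Il11, a cytokine of activated fibroblasts, changed by 1.97 ± 0.18 (SE, adjusted p = 1.01e-10), and Pdpn, podoplanin, by 1.38 ± 0.16 (SE, adjusted p = 2.09e-08). Acta2, the actin of myofibroblasts and of smooth muscle, was the 1 called lower, at -0.99 ± 0.31 (SE, adjusted p = 0.00883), with sham 1 inside the range of the biopsies. The fibroblast activation protein Fap was at -0.06 ± 0.09 (SE, adjusted p = 0.579).

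Proteases and their inhibitors rose together. Of 15 matrix metalloprotease and inhibitor genes tested, 12 were called higher and none lower, with a median of 1.12. Timp1, the inducible inhibitor of these proteases, was at 1.54, 1.7, 2.01, 2.27 and 3.11 FPKM in shams 1 to 5 and from 40.6 to 87.4 FPKM (median 57.8) in the 6 biopsies. Groups were far apart, and the change was 4.26 ± 0.24 (SE, adjusted p = 2.56e-16). Mmp10, stromelysin 2 of migrating epithelium, was at 0.312, 0.353, 0.509, 0.43 and 0.452 FPKM in shams 1 to 5 and from 3.89 to 11.9 FPKM (median 8.71) in the 6 biopsies, a change of 2.63 ± 0.17 (SE, adjusted p = 1.39e-14). Adam8, a metalloprotease of leukocytes, changed by 1.86 ± 0.16 (SE, adjusted p = 8.59e-12) and Mmp3 by 1.73 ± 0.29 (SE, adjusted p = 9.84e-06). In the plasmin system, which dissolves fibrin, 8 of 12 genes were called higher and 1 lower, with the same counts without sham 1. The activators Plau (1.51 ± 0.19 SE, adjusted p = 1.22e-07) and Plat (1.5 ± 0.21 SE, adjusted p = 4.66e-07) and the receptor Plaur (2.43 ± 0.19 SE, adjusted p = 2.76e-12) rose. All 3 were without overlap. Fgl2, a prothrombinase, was the 1 called lower (-0.42 ± 0.15 SE, adjusted p = 0.0235, call lost in 4 of 20).

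Signals of the stem cell niche held calls in both directions. Of 9 Wnt genes tested, 5 were called higher and 1 lower, beside 32.1% and 10.5% of all genes tested. Without sham 1 the counts were 4 and 2. Wnt5a, a Wnt of wound mesenchyme that acts outside the beta-catenin route, was at 1.01, 1.68, 2.81, 2.78 and 2.35 FPKM in shams 1 to 5 and from 3.44 to 6.33 FPKM (median 5.61) in the 6 biopsies, with no overlap and a change of 1.07 ± 0.14 (SE, adjusted p = 1.68e-07). Wnt4 changed by 1.16 ± 0.18 (SE, adjusted p = 4.39e-06), and Wnt2b was called lower at -0.41 ± 0.12 (SE, adjusted p = 0.00547, call lost in 1 of 19). Among 14 genes of BMP and hedgehog signalling, 3 were called higher and 3 lower, beside the same shares of all genes. Without sham 1 the counts were 2 and 4, and after quantile normalization 2 and 6. The BMP antagonist Grem1 was at 1.18 ± 0.30 (SE, adjusted p = 0.00186) and Chrdl1, another BMP antagonist, was at -0.89 ± 0.23 (SE, adjusted p = 0.00229). Both antagonists overlapped between the groups. Bmp7 changed by 0.84 ± 0.12 (SE, adjusted p = 1.65e-06) and Id2, a target of BMP signalling, by -0.52 ± 0.12 (SE, adjusted p = 0.000882), both without overlap.

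Endothelial genes rose. Of 18 genes of endothelium and angiogenesis, 14 were called higher and none lower, with a median of 0.71. Without sham 1 the count was 12 and the median 0.57, and in a fit of only the 3 d libraries the count was 9. Aplnr, the apelin receptor of sprouting vessels, was at 0.0941, 0.737, 1.02, 1.78 and 1.09 FPKM in shams 1 to 5 and from 2.28 to 5.5 FPKM (median 4.41) in the 6 biopsies, a change of 1.45 ± 0.16 (SE, adjusted p = 9.84e-09). Its ligand Apln changed by 1.26 ± 0.13 (SE, adjusted p = 2.05e-09). Neither overlapped between the groups. Of the general markers, Pecam1 was at 0.70 ± 0.19 (SE, adjusted p = 0.00356, call lost in 2 of 20) and Cdh5, VE-cadherin, at 1.01 ± 0.18 (SE, adjusted p = 3.28e-05), both with overlap. Selp, P-selectin, which slows leukocytes on activated vessels, changed by 1.19 ± 0.19 (SE, adjusted p = 7.93e-06), and Icam1 by 1.20 ± 0.25 (SE, adjusted p = 0.000262). The lymphatic receptor Lyve1 went the other way, at 9.05, 12.7, 12.9, 13.3 and 12.9 FPKM in shams 1 to 5 and from 4.59 to 7.34 FPKM (median 6.14) in the 6 biopsies, with every biopsy below every sham and a change of -0.89 ± 0.14 (SE, adjusted p = 2.68e-06). Fabp4, the only tested gene of the adipocyte and mesothelium list, was at 0.78 ± 0.28 (SE, adjusted p = 0.021, call lost in 4 of 20), and the adipocyte markers Adipoq, Plin1 and Lep together reached at most 0.638 FPKM.

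Neutrophil genes were higher in every biopsy. All 11 members tested of 17 listed were called higher, none overlapped between the groups, and the median was 0.99. The other 6 were not tested, and members near 0 in shams could pass the filter only through biopsies. The markers S100a8, S100a9, Csf3r and Cxcr2 summed to 0.0999 to 0.489 FPKM in shams and 18.4 to 103 FPKM in biopsies. S100a9, a subunit of the calcium-binding protein calprotectin, was at 0.14, 0.0698, 0.0716, 0.217 and 0 FPKM in shams 1 to 5 and from 8.91 to 55.6 FPKM (median 17.2) in the 6 biopsies, a change of 4.25 ± 0.41 (SE, adjusted p = 2.82e-10). S100a8, its partner, was at 0.221, 0.111, 0, 0.116 and 0 FPKM in shams 1 to 5 and from 7.32 to 43.8 FPKM (median 14.3) in the 6 biopsies, a change of 4.04 ± 0.38 (SE, adjusted p = 1.47e-10). Clec4d, a lectin receptor, changed by 2.16 ± 0.21 (SE, adjusted p = 3.51e-10) and Il1r2, the decoy receptor for interleukin 1, by 1.92 ± 0.25 (SE, adjusted p = 2.26e-07). Of 10 acute cytokines tested of 16 listed, 8 were called higher and none lower, but only 6 were after median of ratios scaling and 4 after quantile normalization. Il1b, interleukin 1 beta, was at 0.276, 0.53, 0.384, 0.302 and 0.123 FPKM in shams 1 to 5 and from 8.39 to 78.8 FPKM (median 20.4) in the 6 biopsies, a change of 4.23 ± 0.42 (SE, adjusted p = 6.21e-10). Osm, oncostatin M, changed by 1.48 ± 0.28 (SE, adjusted p = 5.16e-05), Il1a by 1.46 ± 0.39 (SE, adjusted p = 0.00266) and Tnf by 0.93 ± 0.32 (SE, adjusted p = 0.0177, call lost in 1 of 20).

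Chemokines were called higher in 18 of 25 cases and lower in none, with a median of 0.95. The neutrophil attractants of the CXC family led. Cxcl2 was at 0.0539, 0.0267, 0.0271, 0.0274 and 0.0521 FPKM in shams 1 to 5 and from 5.33 to 71.7 FPKM (median 13.7) in the 6 biopsies, a change of 4.04 ± 0.51 (SE, adjusted p = 9.45e-08). Cxcl3 was at 0, 0, 0.0292, 0 and 0 FPKM in shams 1 to 5 and from 4.45 to 38.6 FPKM (median 8.49) in the 6 biopsies, a change of 3.57 ± 0.35 (SE, adjusted p = 4.16e-10). Cxcl1 was at 0.379, 0.344, 0.318, 0.0965 and 0.275 FPKM in shams 1 to 5 and from 2.11 to 9.27 FPKM (median 2.88) in the 6 biopsies, a change of 1.81 ± 0.31 (SE, adjusted p = 1.39e-05). All 3 were low in every sham and higher in every biopsy, with biopsy 1 the highest for Cxcl2 and Cxcl3. Cxcl5, an epithelial member of the family, rose from 1.51 ± 0.483 FPKM (SD, n = 5) to 19.4 ± 7.64 FPKM (SD, n = 6), a change of 2.95, and Ccl3, a macrophage chemokine, changed by 2.64 ± 0.50 (SE, adjusted p = 6.1e-05).

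Cxcl1, Cxcl2 and Cxcl3 are neighbours on chromosome 5, and their promoters are shown because the 3 genes rose together. Each window runs from 120 bases before to 10 bases after the gene start in the RefSeq promoter table (GRCm38.p6, plus strand), at chr5:90891125-90891254, chr5:90903779-90903908 and chr5:90785981-90786110. Capitals mark every match to GGG and TTCC with any 3 bases between them, the core of the NF-kB site, on either strand, and overlapping matches run together.
Cxcl1: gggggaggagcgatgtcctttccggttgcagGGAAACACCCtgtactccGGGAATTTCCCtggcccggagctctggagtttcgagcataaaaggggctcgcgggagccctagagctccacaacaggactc
Cxcl2: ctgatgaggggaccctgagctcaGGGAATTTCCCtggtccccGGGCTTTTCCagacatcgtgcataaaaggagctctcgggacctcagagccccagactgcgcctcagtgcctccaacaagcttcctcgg
Cxcl3: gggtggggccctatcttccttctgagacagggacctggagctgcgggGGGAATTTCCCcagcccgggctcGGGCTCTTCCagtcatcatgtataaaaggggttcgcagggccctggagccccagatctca
Each window held 3 matches, of which a pair overlap on opposite strands. Such a match was present in 5.56% of the 32851 promoters of 300 bases in the table and in 7.46% of the 9884 genes tested that have a promoter there. Of the 18 chemokines called higher, 11 had a promoter in the table and 4 held a match, the other being Ccl9. The 3 Cxcl genes are related copies, so their matches are not independent, and a match is a description and not a site shown to be used.

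Macrophage genes rose as well. Of 14 genes of resident macrophages and monocytes, 12 were called higher and none lower, with a median of 0.76, and only 3 did not overlap. Sham 4 was the highest sham, with a mean log2 level of 3.67 against 2.95 to 3.4 in the others. Ccr2, the receptor of incoming monocytes, was at 0.87, 0.76, 0.904, 2.04 and 1.1 FPKM in shams 1 to 5 and from 2.45 to 4.89 FPKM (median 3.76) in the 6 biopsies, a change of 1.15 ± 0.16 (SE, adjusted p = 3.75e-07). The complement subunit C1qa changed by 0.92 ± 0.16 (SE, adjusted p = 1.89e-05) and Cx3cr1, a receptor of resident macrophages, by 0.88 ± 0.13 (SE, adjusted p = 8.4e-07). Genes of wound macrophages went both ways, with 8 of 16 called higher and 2 lower, beside 32.1% and 10.5% of all genes tested. After quantile normalization the counts were 8 and 4. Arg1, arginase 1, which turns arginine into ornithine (chr10:24915221-24927484, GRCm38), was at 0.0752, 0.0931, 0.0377, 0.115 and 0.145 FPKM in shams 1 to 5 and from 11 to 35.1 FPKM (median 26.1) in the 6 biopsies. It was near 0 in every sham, and the change was 4.46 ± 0.24 (SE, adjusted p = 1.29e-16). Hmox1, heme oxygenase, was at 3.86, 3.44, 3.47, 4.72 and 3.17 FPKM in shams 1 to 5 and from 18.3 to 34.7 FPKM (median 25.1) in the 6 biopsies, a change of 2.46 ± 0.21 (SE, adjusted p = 9.07e-12). Trem2, a lipid receptor of phagocytes, changed by 1.27 ± 0.15 (SE, adjusted p = 1.15e-08) and Il4ra, the interleukin 4 receptor chain, by 1.46 ± 0.15 (SE, adjusted p = 1.65e-09). Retnla, another gene of alternatively activated macrophages, fell instead, at 10.6, 4.58, 8.84, 11.4 and 7.79 FPKM in shams 1 to 5 and from 0.0553 to 7.53 FPKM (median 0.355) in the 6 biopsies, a change of -2.41 ± 0.50 (SE, adjusted p = 0.00019). A single biopsy, number 6, lay within the sham range. Mgl2, a lectin of the same macrophages, was also lower (-0.43 ± 0.15 SE, adjusted p = 0.0186, call lost in 4 of 19), and Mrc1, the mannose receptor, was higher (0.43 ± 0.11 SE, adjusted p = 0.00176). Lysosome and phagocytosis genes were called higher in 9 of 14 cases and lower in 1. Lgmn, the lysosomal protease legumain, changed by 1.17 ± 0.11 (SE, adjusted p = 3.52e-10), Apoe by 1.01 ± 0.19 (SE, adjusted p = 7.71e-05), and Npc2, a cholesterol carrier, was called lower at -0.25 ± 0.05 (SE, adjusted p = 0.000155).

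All 10 genes of arginine and polyamine metabolism tested were called higher, with a median of 0.83. Beside this count and those that follow, 32.1% of all genes tested were called higher and 10.5% lower. After Arg1 came Arg2, the mitochondrial arginase, at 0.217, 0.274, 0.218, 0.12 and 0.305 FPKM in shams 1 to 5 and from 1.4 to 2.3 FPKM (median 2.13) in the 6 biopsies, a change of 1.31 ± 0.17 (SE, adjusted p = 1.33e-07). Smox, spermine oxidase, changed by 1.14 ± 0.10 (SE, adjusted p = 6.95e-11), and Odc1, the first enzyme of polyamine synthesis, by 0.45 ± 0.11 (SE, adjusted p = 0.000906). Of 10 NRF2 target and metallothionein genes, 6 were called higher, with Gpx2, a glutathione peroxidase of epithelium, at 0.85 ± 0.12 (SE, adjusted p = 4.33e-07). Complement genes were called higher in 7 of 10 cases and lower in none, led by C3 at 3.16, 3.9, 3.86, 4.36 and 5.55 FPKM in shams 1 to 5 and from 8.85 to 21.8 FPKM (median 13.4) in the 6 biopsies, a change of 1.52 ± 0.36 (SE, adjusted p = 0.000817). In the unfolded protein response, 9 of 13 were called higher, with Asns, asparagine synthetase, at 0.93 ± 0.12 (SE, adjusted p = 6.63e-08) and the chaperone Hspa5 at 0.63 ± 0.14 (SE, adjusted p = 0.000418, call lost in 1 of 20), and 1 lower, Ddit3 (-0.32 ± 0.11 SE, adjusted p = 0.0161, call lost in 2 of 20). Prostaglandin genes were called higher in 6 of 11 cases and lower in 2. Ptgs2, the inducible cyclooxygenase, was at 0.371, 1.07, 1.05, 1.44 and 1.16 FPKM in shams 1 to 5 and from 2.21 to 10.1 FPKM (median 4.42) in the 6 biopsies, a change of 1.40 ± 0.30 (SE, adjusted p = 0.000322), and the prostaglandin-degrading enzyme Hpgd was lower at -0.54 ± 0.13 (SE, adjusted p = 0.00155). Of 19 glycolysis and hypoxia genes, 4 were called higher, a smaller share than that of all genes, and 3 lower. The counts were 3 and 5 after median of ratios scaling, with the median of 0.02 becoming -0.10, and 5 and 0 without sham 1. Slc16a3, a lactate exporter, changed by 0.95 ± 0.20 (SE, adjusted p = 0.000278). Immediate early genes, which respond within minutes to a stimulus, were called higher in 8 of 15 cases, led by Ier3 at 1.55 ± 0.20 (SE, adjusted p = 9.9e-08), while Fos was at 0.38 ± 0.34 (SE, adjusted p = 0.391).

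Some interferon-stimulated genes rose. Of 16 tested, 7 were called higher, beside 32.1% of all genes tested, and none lower, with a median of 0.37, and 10 did not overlap between the groups. With quantile normalization the count was 3, beside 2538 of all 13285 genes tested. With median of ratios scaling it was 4, beside 2617 of 13285, and without sham 1 it was 4, beside 3366 of 13278. With quantile normalization and without sham 1 the share was no larger than that of all genes. Isg15, a ubiquitin-like antiviral protein, was at 3.38, 2.63, 3.36, 3.01 and 2.35 FPKM in shams 1 to 5 and from 5.36 to 11.2 FPKM (median 9.82) in the 6 biopsies, a change of 1.32 ± 0.32 (SE, adjusted p = 0.00118). Ifit1, which binds foreign RNA, was at 0.884, 0.59, 1.15, 1.38 and 0.598 FPKM in shams 1 to 5 and from 2.37 to 4.25 FPKM (median 3.62) in the 6 biopsies, a change of 1.20 ± 0.31 (SE, adjusted p = 0.00195). Oasl2 changed by 1.20 ± 0.31 (SE, adjusted p = 0.00229). In the list of the interferon gamma response, 1 of 12 genes was called higher, Ido1 at 1.07 ± 0.35 (SE, adjusted p = 0.0143, call lost in 1 of 20) (a fit of only the 3 d libraries called 4), and Irf1 was at -0.06 ± 0.19 (SE, adjusted p = 0.819). The 7 genes of MHC class II presentation had a median of 0.64, and none was called by limma, with H2-Aa at 0.68 ± 0.34 (SE, adjusted p = 0.104). Of the 7, 1 had an unadjusted p under 0.05. With array weights 4 were called higher, and in a fit of only the 3 d libraries 5 were.

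The promoters of Isg15 and Ifit1 are shown because both genes belong to the interferon list and hold a match to the motif bound by interferon-activated factors. The windows, cut as above from the RefSeq table (GRCm38.p6), lie at chr4:156200809-156200938 on the minus strand and chr19:34640769-34640898 on the plus strand. Capitals mark every match to a pair of GAAA with any 2 bases between them, the core of the interferon-stimulated response element, on either strand.
Isg15: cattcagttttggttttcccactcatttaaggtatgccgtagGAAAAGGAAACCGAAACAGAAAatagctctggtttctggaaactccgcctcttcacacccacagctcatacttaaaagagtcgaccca
Ifit1: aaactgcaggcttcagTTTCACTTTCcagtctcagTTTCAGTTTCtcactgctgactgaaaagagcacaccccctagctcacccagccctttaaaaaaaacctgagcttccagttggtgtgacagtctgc
Isg15 held 3 overlapping matches and Ifit1 held 2. A match was present in 3.44% of all promoters in the table and in 3.75% of the tested genes with a promoter there. Of the 7 interferon genes called higher, 4 had a promoter in the table, and Oasl2 and Ifi44 held no match in it.

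Few lymphocyte genes passed the filter or the test. Of 6 T and NK cell genes tested of 17 listed, 1 was called lower and none higher, with a median of 0.13. The call was lost with no filter, with array weights, without sham 1 and in a fit of only the 3 d libraries. The median was -0.03 after quantile normalization and 0.74 with a pseudocount of 0.1. That pseudocount called 2 members higher, as did that fit. Most members did not pass the filter, and Cd3e reached at most 0.365 FPKM in shams and 0.455 FPKM in biopsies. Among 9 B and plasma cell genes, 2 were called higher, a smaller share than the 32.1% of all genes tested. They were Sdc1 (0.77 ± 0.13 SE, adjusted p = 8.83e-06), which epithelium also makes, and Prdm1 (0.70 ± 0.11 SE, adjusted p = 2.96e-06). The B cell markers Ms4a1 and Cd79a were highest in sham 2, at 1.03 and 1.64 FPKM, and did not pass the test. Mast cell proteases rose, with Cma1 at 0.71 ± 0.19 (SE, adjusted p = 0.00261, call lost in 1 of 20), Mcpt2 at 0.72 ± 0.15 (SE, adjusted p = 0.000165) and Mcpt1 at 0.54 ± 0.12 (SE, adjusted p = 0.00055), while Kit was at 0.05 ± 0.11 (SE, adjusted p = 0.731) and Cpa3 reached at most 0.187 FPKM. Levels were low. Mcpt1 was at 0.111 to 0.613 FPKM in shams and 0.522 to 1.24 FPKM in biopsies, with overlap. Mcpt2 was at 0.123 to 0.186 FPKM in shams and 0.413 to 2.13 FPKM in biopsies. Of the 4 tested genes of the mast cell and eosinophil list, 1 did not overlap between the groups. None of the 5 red blood cell genes tested was called by limma, 0 had an unadjusted p under 0.05, and 2 were called higher in a fit of only the 3 d libraries. Hba-a1, a globin, was at 1.05 ± 0.59 (SE, adjusted p = 0.15). The globin copies share reads and are uncertain.

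**Figure D4:**
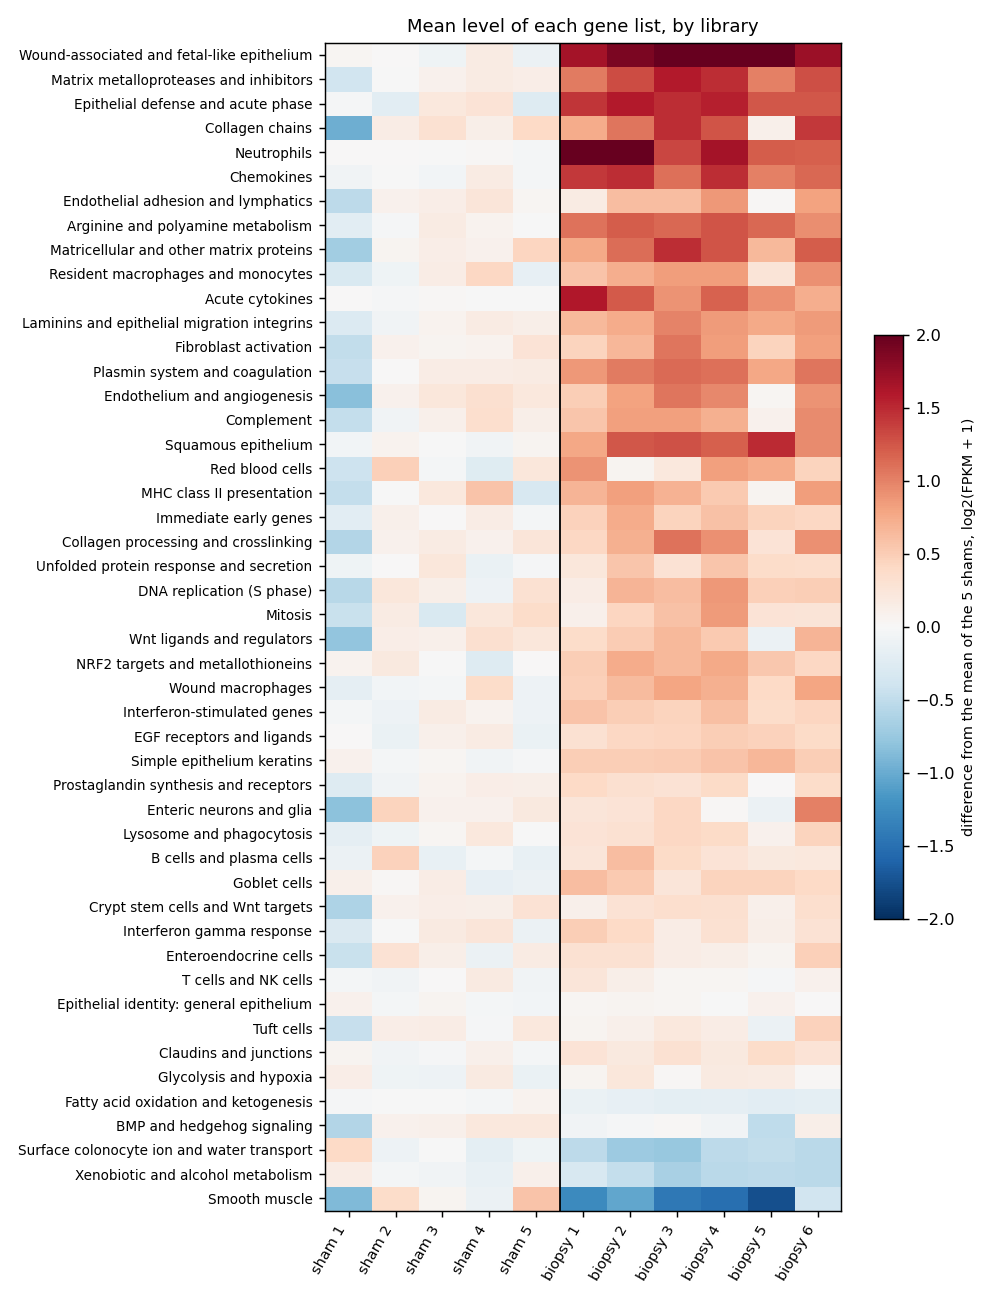
Mean log2(FPKM + 1) level of each of 48 gene lists with at least 5 tested members, in each of the 11 libraries, as the difference from the mean of the 5 shams; colours stop at 2 in either direction. Sham 1 is blue in the stromal lists, biopsies 1 and 2 are the darkest for neutrophils, and biopsy 6 is the palest biopsy for smooth muscle.

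The 6 biopsies differed among themselves, with no label that groups them. In neutrophil genes, biopsies 1 and 2 had mean log2 levels of 2.44 and 2.45, and biopsies 3 to 6 had 1.42, 1.76, 1.29 and 1.28. All shams were at or below 0.113. In acute cytokines biopsy 1 was highest at 3.06 and biopsy 6 lowest at 2.18. In collagens the order differed, with biopsy 3 highest at 4.84 and biopsies 1 and 5 lowest at 4.11 and 3.47. In wound-associated epithelium biopsy 5 was highest at 6.19 and biopsy 1 lowest at 5.52. These are descriptions of single libraries and were not tested.

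The state at 3 d was then set against that at 6 h, by testing the difference between the 2 biopsy effects. The 2 times share no library. A difference was called for 6936 genes, 5475 (41.2% of those tested) with a higher and 1461 (11%) with a lower effect at 3 d. With median of ratios scaling the split was 2604 and 2992, and with quantile normalization 3277 and 2341. Inflammatory genes had a lower effect at 3 d than at 6 h: all 11 neutrophil genes, 12 of 25 chemokines, 6 of 10 acute cytokines and all 16 interferon-stimulated genes. S100a9 differed by -3.71 ± 0.59 (SE, adjusted p = 4.05e-06), Il1b by -2.86 ± 0.61 (SE, adjusted p = 0.000209), Cxcl2 by -2.86 ± 0.74 (SE, adjusted p = 0.00164) and Isg15 by -3.57 ± 0.46 (SE, adjusted p = 1.28e-07). Collagen chains had a higher effect at 3 d in 15 of 17 cases and endothelial genes in 11 of 18. The 6 of 19 matricellular genes and 5 of 14 crypt genes with a higher effect were smaller shares than that of all genes. Col1a1 was at -1.14 at 6 h and 1.96 at 3 d, a difference of 3.09 ± 0.35 (SE, adjusted p = 1.32e-08), and Smoc2 differed by 2.09 ± 0.27 (SE, adjusted p = 1.27e-07). Epithelial genes divided. Clu was at 0.25 at 6 h and Retnlb at 0.85, and they differed by 4.05 ± 0.81 (SE, adjusted p = 9.86e-05) and 3.41 ± 0.33 (SE, adjusted p = 4.87e-10). Krt14 differed by 1.76 ± 0.30 (SE, adjusted p = 9.58e-06) and Arg1 by 1.61 ± 0.35 (SE, adjusted p = 0.000279), while 9 of 14 wound-associated genes had a lower effect at 3 d than at 6 h. Car1 had been higher in biopsies at 6 h (0.69) and differed by -2.01 ± 0.28 (SE, adjusted p = 3.82e-07). Pcp4 differed by -3.74 ± 0.61 (SE, adjusted p = 5.02e-06).

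**Figure D5:**
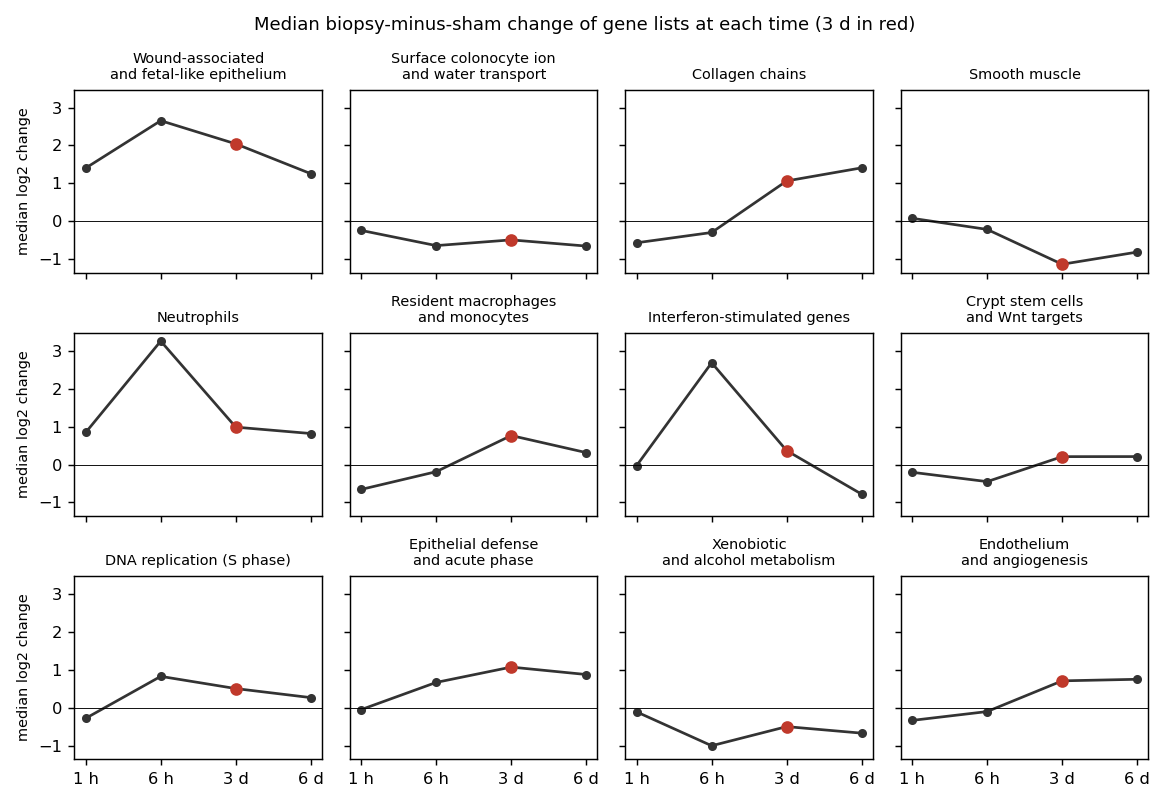
Median biopsy-minus-sham change over the tested members of 12 lists at 1 h, 6 h, 3 d and 6 d, on the log2(FPKM + 1) scale, with 3 d in red; each time has its own shams. Neutrophil and interferon lists are highest at 6 h, and collagen chains pass from -0.29 at 6 h to 1.06 at 3 d.

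Between 3 d and 6 d few effects differed: 135 genes (1.02% of those tested) had a higher effect at 3 d and 109 (0.820%) a lower one. The total of 244 became 521 without sham 1, 155 without sham 2 and 161 without sham 5. The interferon list held 10 of the higher ones, with Isg15 differing by 2.58 ± 0.46 (SE, adjusted p = 0.00136), Ifit1 by 2.68 ± 0.45 (SE, adjusted p = 0.000504) and Oasl2 by 2.81 ± 0.45 (SE, adjusted p = 0.000326). The shams of the 2 times were at unlike levels. Isg15 was at 28.4 to 93 FPKM in 6 d shams and 9.03 to 33.3 FPKM in 6 d biopsies, against 2.35 to 3.38 FPKM in 3 d shams and 5.36 to 11.2 FPKM in 3 d biopsies. Every 6 d sham was above every 3 d sham, while the biopsies of the 2 times overlapped in level, and the part of the high 6 d shams in the difference was not tested. Cldn4 differed by 1.23 ± 0.31 (SE, adjusted p = 0.0262) and Lcn2 by 1.36 ± 0.36 (SE, adjusted p = 0.0353), and the metalloproteases Mmp7 (-0.80) and Mmp13 (-0.94) and the mast cell proteases Mcpt1 (-1.07) and Mcpt2 (-0.84) had a smaller effect at 3 d than at 6 d. Car4 had a smaller fall at 3 d (-1.27) than at 6 d (-2.14), a difference of 0.87 ± 0.19 (SE, adjusted p = 0.0121).

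Genes whose 3 d effect exceeded those at both 6 h and 6 d were few. By the rule for them, 16 rose and 1 fell. Slc46a1, the proton-coupled folate transporter, was at 38.7, 32, 28.6, 36.9 and 35.2 FPKM in shams 1 to 5 and from 55.9 to 85.2 FPKM (median 60.9) in the 6 biopsies. The groups did not overlap at 3 d, the change was 0.94 ± 0.13 (SE, adjusted p = 6.53e-07), and it exceeded that at 6 h by 1.34 ± 0.19 (SE, adjusted p = 6.44e-07) and that at 6 d by 0.80 ± 0.19 (SE, adjusted p = 0.0196). Its 3 d shams were below every sham at 6 h (40.8 to 49.7 FPKM) and at 6 d (40.3 to 52.4 FPKM). Aplp1, an amyloid precursor-like protein, was at 7.62, 7.78, 8.05, 7.68 and 7.61 FPKM in shams 1 to 5 and from 12.9 to 16.9 FPKM (median 14.7) in the 6 biopsies, a change of 0.85 ± 0.07 (SE, adjusted p = 1.6e-12) that exceeded the one at 6 d by 0.49. Its 3 d shams, too, were below every sham at 6 h (8.39 to 9.45 FPKM) and at 6 d (8.52 to 9.61 FPKM). The 1 that fell was Sowahc, an ankyrin repeat gene, at 27.3, 23.6, 27, 23.5 and 24 FPKM in shams 1 to 5 and from 12.9 to 14.4 FPKM (median 13.8) in the 6 biopsies, a change of -0.82 ± 0.07 (SE, adjusted p = 1.29e-11). Its 3 d shams were above the 6 d shams (14.8 to 19.5 FPKM), while the biopsies at the 2 times overlapped (11 to 16.8 FPKM at 6 d). The part of the sham levels in these 3 differences was not tested.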

How the data were processed

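Per the labels, each library was deposited as FPKM for gene symbols. Per the submitters' processing notes, STAR, Cufflinks and the mm10 build were used, with versions not given in the sources used here. The authors' read counts and counting settings, strand included, are not given either, so genes that overlap or have near-identical copies are uncertain. The 41 time course libraries were joined on 23997 symbols and grouped by title. Another 23 libraries, of a cohort collected at 6 h, were not used.

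The 13285 genes that reached 1 FPKM in 4 or more libraries were taken as log2(FPKM + 1). One mean per group (8 groups, 33 residual degrees of freedom) was fitted with limma 3.58.1 (trend, empirical Bayes) in R 4.3.3. P-values were adjusted by Benjamini-Hochberg over all genes tested. Effects at 2 times were compared by a contrast of their differences.

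Lists held 50 groups of genes with 733 entries, of which 4 were read under another symbol (Emr1 for Adgre1, Siglec5 for Siglecf, Clca3 for Clca1 and C1s1 for C1s). Members and lists were chosen with earlier results of these data known. The genes named are the 15 largest rises and falls without overlap (higher group's mean 5 FPKM or more, log2 change 1 or more), the first 3 and up to 4 largest called members of each list in each direction, and up to 10 in each direction with an excess over both other times. Chosen after their values were seen were list members whose effect differed between 3 d and 6 d, the 10 largest such differences each way, and 14 genes set against 6 h. Coordinates are from GENCODE vM21 (GRCm38). Alternatives were a pseudocount of 0.1, other filters (none, and 5 FPKM), quantile normalization, median of ratios scaling, weighted arrays, fitting the 3 d libraries alone, that fit with a replicate block and leaving out each 3 d library. Leaving out sham 1 with biopsy 5 was chosen after seeing the data. The fits were tested on simulated data. Some genes are not reported here. Python 3.11.15 with numpy 2.4.6, pandas 2.3.3 and matplotlib 3.10.9 made tables and figures.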

Additional observations from a re-analysis of the deposited data

Results flagged for a closer look

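Single libraries stood far from the rest of their group in 27 of 160 groups examined (50 lists and 30 genes, each in shams and biopsies). For a single group chance gives about 1 in 20. The groups share the same 11 libraries and are not independent, so the total cannot be read against that rate. Sham 1 had low mean log2 levels of crypt genes (2.32 against 3.03 to 3.23 in the other shams), collagen chains (2.39 against 3.48 to 3.76), collagen processing (1.77 against 2.43 to 2.60) and the plasmin system (2.45 against 2.92 to 3.07). It was also low in Wnt genes (1.21 against 2.10 to 2.33), BMP and hedgehog genes (2.95 against 3.62 to 3.76), endothelium (0.80 against 1.72 to 1.94) and endothelial adhesion (1.41 against 1.97 to 2.18). Its level of Fabp4, the 1 tested gene of the adipocyte and mesothelium list, was low (3.24 against 4.60 to 4.83). Biopsy 5 was low in the same gene (4.14 against 5.29 to 5.65), in BMP and hedgehog genes (3.03 against 3.46 to 3.66) and in prostaglandin genes (2.69 against 2.98 to 3.08). Sham 4 was high in chemokines (2.10 against 1.86 to 1.92) and wound macrophage genes (2.03 against 1.48 to 1.63), and sham 2 in B and plasma cell genes (1.51 against 0.90 to 1.0).

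Among single genes, in FPKM, sham 1 stood apart in Krt14 (1.71 against 1.22 to 1.34), Ckm (5.8 against 9.98 to 11.6) and Slc26a3 (949.5 against 498 to 546). Sham 2 did so in Clu (23.9 against 6.36 to 9.84), sham 3 in Cxcl3 (0.0292 against 0 to 0), and sham 4 in Spp1 (0.364 against 0.0194 to 0.0393) and Cwh43 (2.23 against 0.956 to 1.26). Of the biopsies, number 5 stood apart in Prss22 (24.5 against 8.03 to 13.5), number 6 in Pcp4 (4.82 against 1.02 to 2.3) and Ckm (4.46 against 0.686 to 1.71), number 1 in Mptx2 (24.2 against 10.7 to 15) and number 3 in Car4 (318 against 459 to 524).

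The biopsy effect at 3 d differed from that at 6 d, by limma's test of the difference, in 244 genes, of which 52 are given here as the 3 d effect minus the 6 d effect on the log2 scale. Positive values were found for the interferon-responsive genes Oasl2 2.81, Ifit1 2.68, Isg15 2.58, Oas3 2.19, Rtp4 2.11, Ddx60 2.09, Oas2 1.58, Rsad2 1.48, Irf7 1.45, Usp18 1.32, Ifi44 1.09, Cmpk2 1.08 and Oas1a 0.72. The near-identical Apol9a and Apol9b differed by 2.52 and 2.34, and their reads may be shared. Other genes with a higher effect at 3 d were Creb3l3 at 1.68, Ccl8 at 1.46, Lcn2 at 1.36, Cldn4 at 1.23, Il33 at 0.98, Ugt1a1 at 0.93, F13a1 at 0.89 and Car4 at 0.87. Smaller positive differences were found for Nrarp (0.81), Slc46a1 (0.80), Hspa12a (0.70), Cck (0.69), Sh3d21 (0.68), Krt20 (0.58), Aplp1 (0.49), Rnaset2a (0.37), Rnaset2b (0.34), Mcrs1 (0.36), Stard5 (0.35) and Vil1 (0.32). Negative values were found for C1qtnf3 at -2.03, Fmod at -2.01, Tnn at -1.55, Mfap4 at -1.34, Mfap5 at -1.04 and Col7a1, the 1 collagen chain of 17 with a lower effect at 3 d, at -0.61. The proteases Mcpt1 (-1.07), Mmp13 (-0.94), Mcpt2 (-0.84) and Mmp7 (-0.80) and the lymphocyte genes Ctla4 (-0.79) and Gzmb (-0.76) were lower too. The rest were Mal (-1.35), Mdk (-1.28), Reg4 (-1.11), Gfi1 (-0.97) and Sowahc (-0.47).

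Against 6 h, 14 genes are given, as the 3 d effect minus the 6 h effect. Clu (4.05), Retnlb (3.41), Col1a1 (3.09), Smoc2 (2.09), Krt14 (1.76), Arg1 (1.61) and Slc46a1 (1.34) had a higher effect at 3 d. Pcp4 (-3.74), S100a9 (-3.71), Isg15 (-3.57), Il1b (-2.86), Cxcl2 (-2.86), Car1 (-2.01) and Sowahc (-0.43) had a lower one.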

How the results depend on the processing

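Of 253 named genes called at 3 d, 61 lost the call in at least 1 alternative and none changed sign. Genes called at 3 d numbered 4841 to 5759 when each library was left out in turn (3366 to 4458 higher and 1205 to 1475 lower). Median of ratios scaling gave 2617 higher and 2708 lower, and quantile normalization 2538 and 3282. For the difference from 6 h, these scalings gave 2604 higher with 2992 lower, and 3277 with 2341. Leaving out 1 library gave 6641 to 7086 (5048 to 5659 higher, 1362 to 1619 lower). For the difference from 6 d, leaving out 1 library gave 155 to 521 (91 to 209 higher, 63 to 312 lower), with the highest counts without sham 1. Array weights gave 1006 there (393 higher and 613 lower), and leaving out sham 1 with biopsy 5 gave 468 (204 and 264). The lower ones were 72 with a pseudocount of 0.1 and 59 with a filter of 5 FPKM, which tests fewer genes. The cause of the other shifts was not tested. Whether equal replicate numbers pair a biopsy with a sham is not known, because the labels name no animal. Correlations of deviations from the group mean between libraries of equal number were 0.055, 0.069, 0.12, 0.080 and -0.20. They were not tested and cannot settle the pairing. With the replicate number as a block in a fit of the 3 d libraries, where biopsy 6 has no sham of its number and adds nothing to the difference, 3545 genes were called (2718 higher and 827 lower), against 4663 in that fit without the block. Among the lists, that block fit called 7 of 17 collagen chains, 8 of 16 collagen processing genes, 5 of 15 mitosis genes, 5 of 14 lysosome genes and 3 of 9 Wnt genes higher. With no read counts, the depth limit of single values is unknown.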
